A study of Mus musculus with 6 samples.

Results

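Regulators of G protein signalling (RGS proteins) were followed in mouse CD4+CD25+ T cells through 8 genes: Rgs1, Rgs2, Rgs3, Rgs10, Rgs14, Rgs16, Rgs18 and Rgs19. Every probe set whose platform annotation names one of these genes was taken, which gave 16 of the 22690 probe sets on the array. The knockout group (3 arrays) came from mice labelled fl-DNMT1/Foxp3cre on a C57BL6 background, in which a floxed Dnmt1, the maintenance DNA methyltransferase gene, meets Cre recombinase driven by Foxp3. Its controls (3 arrays) were wild type C57BL6 mice, not described as carrying the Cre or the floxed allele, so effects of those alleles cannot be told apart from the deletion. Cells of both groups had been separated with magnets as CD4+CD25+, the surface phenotype of regulatory T cells (Treg), and no source used here gives the ages of the mice. The labels call the samples independent without tying each to its own animal, so a p-value here speaks only of how these samples vary. The comparison asks which transcripts differ when Dnmt1 is deleted in cells that express Foxp3.

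RGS proteins switch G protein signals off. A receptor such as a chemokine receptor loads the alpha subunit of a G protein with GTP, and the RGS domain speeds up the hydrolysis of that GTP, so that alpha and beta-gamma subunits come together again and signalling ends. In lymphocytes these proteins set how long and how strongly cells migrate towards chemokines. The members fall into subfamilies by sequence: Rgs1, Rgs2, Rgs3, Rgs16 and Rgs18 belong to the R4 group, Rgs10 and Rgs14 to the R12 group and Rgs19 to the RZ group.

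Values are log2 expression summaries made with RMA, in which each array is normalised to the others. They have no zero, and differences of dim transcripts are damped near a floor. The median level over the tested probe sets was 5.74, and with 3 arrays a group the precision is limited. T cell markers were high in both groups, with Cd3d, a chain of the T cell receptor complex, at 12.28 ± 0.25 in the knockout and 12.40 ± 0.02 in wild type (SD, n = 3 each). The brighter Dnmt1 probe set averaged 8.96 ± 0.34 in the knockout and 9.50 ± 0.07 in wild type (difference -0.53, SE 0.16, limma adjusted p = 0.162). No source used here says whether it lies in the deleted part of the gene, so it does not check the deletion. Foxp3, the factor that defines Treg, averaged 8.84 ± 0.42 in the knockout and 9.50 ± 0.02 in wild type (limma adjusted p = 0.151). Markers of some other cells differed between the groups: all 13 measured neutrophil markers were higher on average in the knockout and 8 passed the test. Their mean level was 8.04, 10.03 and 8.68 on knockout replicates 1, 2 and 3, and 6.16, 6.37 and 5.96 on wild type replicates 1, 2 and 3, with no marker below the array medians on all 6 arrays. Of 14 measured CD8 and NK cell markers 3 passed as higher (Ncr1, Klrc1 and Crtam) and 1 as lower (Klra8), with 10 positive and 4 negative differences. The list means were 7.68, 8.38 and 8.35 on the knockout arrays and 7.76, 7.76 and 7.64 on the wild type arrays. Of 13 measured B and plasma cell markers 0 passed, with 8 positive and 5 negative differences. Of 9 measured dendritic cell markers 0 passed (7 positive, 2 negative), and of 5 measured erythroid markers 0 passed (5 positive). Of 11 measured T cell markers 10 had a negative difference and 0 passed, with 1 lower at an unadjusted p under 0.05 and a median of -0.13. Of 16 measured Treg markers 3 passed as lower in the knockout, Il2ra, Ikzf2 and Nrp1, and 0 as higher. Of the 16, 12 had a negative difference, and 9 were lower and 2 higher at an unadjusted p under 0.05, with a median of -0.37. For all these counts each gene's brightest probe set was used, and over all 12393 genes 0.516% were called lower and 1.32% higher. The part of these marker shifts in the RGS values was not tested.

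Rgs16 was the only RGS gene of the 8 whose probe sets passed the test, and it fell. Of the 16 probe sets, 2 were lower in the knockout and 0 higher at an adjusted p under 0.05, and both belong to Rgs16. Over all 22626 probe sets tested, 0.486% were called lower and 1.19% higher by the same limma fit with Benjamini-Hochberg adjustment. At an unadjusted p under 0.05, 3 of the 16 were lower, the 3 Rgs16 probe sets, and 0 higher, against 9.12% and 7.53% of all probe sets. The groups did not overlap for 2 of the 16, both lower in the knockout, against 13.6% of all probe sets lower and 9.79% higher without overlap, so that by this looser count the RGS genes lay near the background. In all, 13 of the 16 differences were negative and 3 positive, beside 12406 negative and 10220 positive of all 22626. The median of the 16 was -0.13, beside a median of -0.019 over all probe sets. Probe sets of a gene are not separate measurements. By brightest probe set 7 of the 8 genes had a negative difference, beside 6650 of all 12393 genes, and of the 8 only Rgs16 passed.

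**Figure D1:**
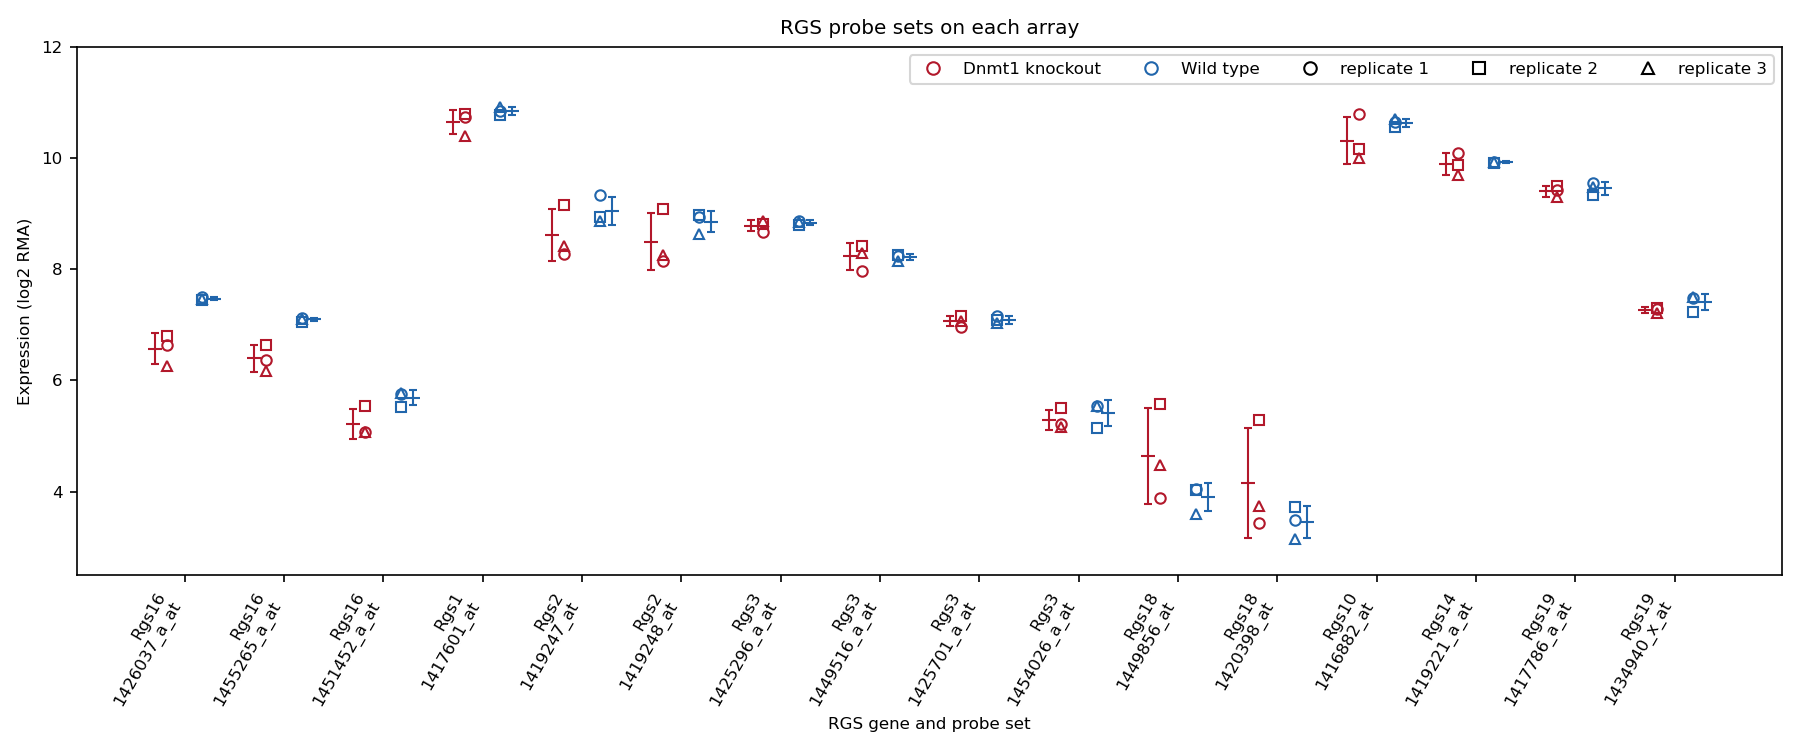
Expression of the 16 RGS probe sets (horizontal axis) on each array in log2 RMA units (vertical axis), with Dnmt1 knockout arrays in red left of wild type arrays in blue, marker shapes for replicate numbers and bars for the mean ± SD of 3 arrays. The knockout arrays lie below all wild type arrays for 2 Rgs16 probe sets, and the Rgs18 probe sets have 1 knockout array far above the others.

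Rgs16 encodes a short R4 protein that acts on Gi and Gq alpha subunits and is known to be induced when T cells are activated. Because it was the member that fell, the 250 bases before its RefSeq transcription start (build GRCm38.p6, chr1:153740103-153740352, plus strand) are shown with those of Rgs2 (chr1:144004150-144004399, minus strand), an R4 relative on the same chromosome that did not pass. Capitals mark CG dinucleotides, the dinucleotide at which Dnmt1 maintains methylation.
Rgs16: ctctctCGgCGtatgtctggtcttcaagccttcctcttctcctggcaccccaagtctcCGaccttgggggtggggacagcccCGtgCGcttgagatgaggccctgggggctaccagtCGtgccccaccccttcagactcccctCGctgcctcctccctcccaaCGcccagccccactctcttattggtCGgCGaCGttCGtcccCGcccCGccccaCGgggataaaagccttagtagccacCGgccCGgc
Rgs2: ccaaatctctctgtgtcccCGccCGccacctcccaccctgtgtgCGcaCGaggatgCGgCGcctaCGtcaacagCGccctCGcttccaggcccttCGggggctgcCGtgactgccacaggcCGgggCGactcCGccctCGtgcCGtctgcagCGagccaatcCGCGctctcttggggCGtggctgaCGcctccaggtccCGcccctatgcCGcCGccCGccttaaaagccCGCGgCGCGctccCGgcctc
The Rgs16 window holds 17 CG dinucleotides and the Rgs2 window 30, where the median over 32851 RefSeq windows of this length is 6 and 92.1% hold at least 1. A TATAAA motif, searched on both strands, was in neither window and in 12.4% of all windows. The GCGNGGGCG motif recognised by Egr proteins, also searched on both strands, was in the Rgs2 window and not in the Rgs16 window, and 4.70% of all windows hold it. Of the 8 genes 5 were in the set of RefSeq promoter sequences, with 8 windows in all, and Rgs1, Rgs14 and Rgs18 were not. DNA methylation was not measured on these arrays.

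On the brightest Rgs16 probe set, 1426037_a_at, the knockout arrays had levels of 6.63, 6.81 and 6.26, against 7.51, 7.45 and 7.46 on the wild type arrays. All knockout arrays thus lay below all wild type arrays, which were close together. The difference was -0.91 (SE 0.14, 95% interval -1.22 to -0.59), which is 1.87-fold lower in the knockout (limma adjusted p = 0.0242). Such folds understate differences of transcripts near the floor, but this probe set lay above the median level, at percentile 64.9. In a bulk sample fewer cells that carry a transcript and less of it per cell cannot be told apart.

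The probe set 1455265_a_at gave Rgs16 levels of 6.37, 6.65 and 6.17 in the knockout and 7.12, 7.06 and 7.11 in wild type, again without overlap. Its difference was -0.70 (SE 0.12, limma adjusted p = 0.0400). The dimmest Rgs16 probe set, 1451452_a_at, had 5.06, 5.53 and 5.07 in the knockout and 5.75, 5.53 and 5.78 in wild type. Here knockout replicate 2 and wild type replicate 2 met, and the difference of -0.46 (SE 0.14) did not pass (limma adjusted p = 0.170). The 3 probe sets thus had the same sign. The suffix _a_at marks probe sets that recognise several transcripts of a gene.

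The Rgs16 call depended on having all wild type arrays. On the brightest probe set, the adjusted p was 0.107, 0.104 and 0.115 without wild type replicates 1, 2 and 3, while the difference was between -0.92 and -0.89. Without any 1 knockout array it still passed, with differences of -0.94, -1.03 and -0.75 without knockout replicates 1, 2 and 3. The second call, on 1455265_a_at, was also lost without knockout replicate 1 (adjusted p = 0.0592) and without knockout replicate 3 (0.0775). Without knockout replicate 2 the dimmest probe set passed too (difference -0.62, adjusted p = 0.0468).

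**Figure D2:**
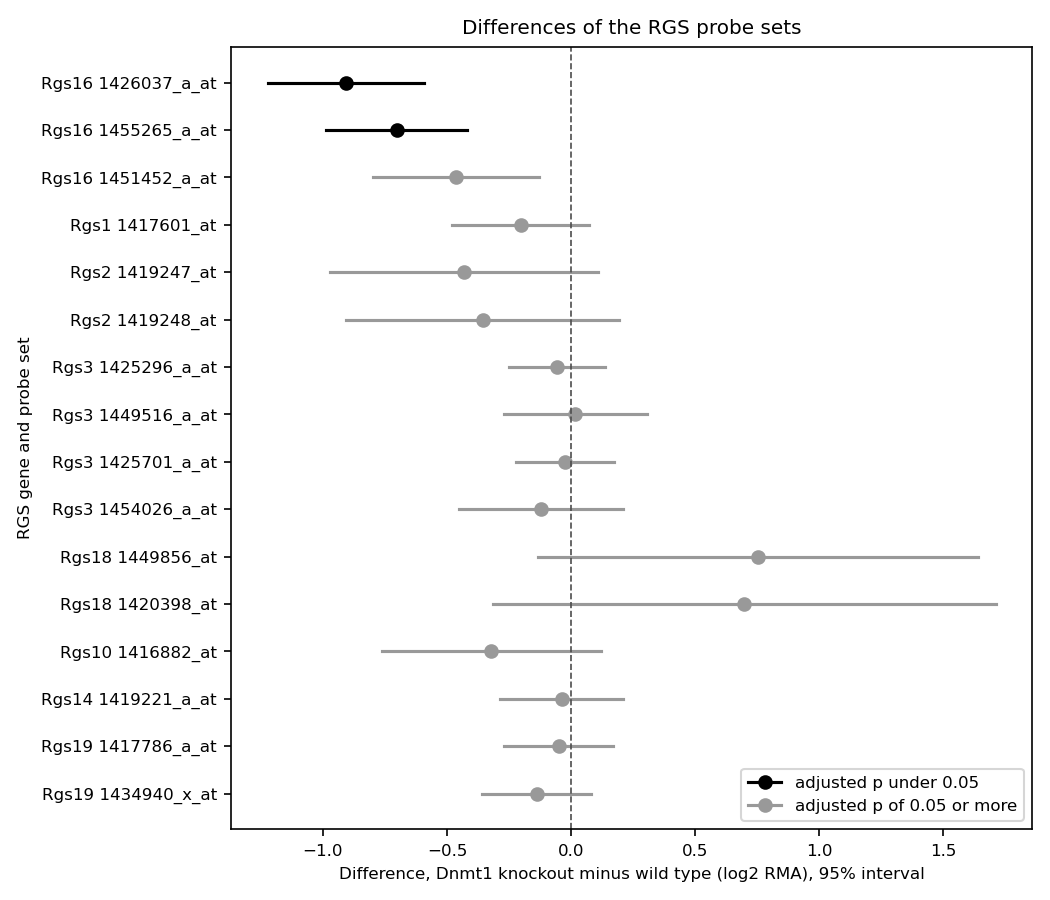
Difference between Dnmt1 knockout and wild type (horizontal axis, log2 RMA) for each RGS probe set (vertical axis), with the 95% interval from the limma fit over 3 arrays a group and black for an adjusted p under 0.05. The intervals of the 3 Rgs16 probe sets lie below 0, and those of the other 13 cross it.

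Rgs1, which restrains chemokine-driven migration of B and T cells, was the member whose probe set ranked highest among all probe sets by mean level, at percentile 96.9. Its levels were 10.75, 10.80 and 10.39 in the knockout and 10.86, 10.78 and 10.92 in wild type. The groups overlapped, with knockout replicate 3 the lowest. The difference of -0.20 (SE 0.12, 95% interval -0.48 to 0.073) did not pass (limma adjusted p = 0.443).

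Rgs2, which acts mainly on Gq alpha subunits, had levels of 8.27, 9.16 and 8.42 in the knockout and 9.33, 8.94 and 8.88 in wild type on its brighter probe set, 1419247_at. Knockout replicates 1 and 3 lay below every wild type array and knockout replicate 2 lay among them. The second probe set, 1419248_at, had 8.15, 9.08 and 8.26 in the knockout and 8.95, 8.98 and 8.64 in wild type. Here too knockout replicates 1 and 3 lay below every wild type array, while knockout replicate 2 lay above them. The differences were -0.43 (SE 0.23, limma adjusted p = 0.407) and -0.36 (SE 0.24, adjusted p = 0.503). Without knockout replicate 2 they were -0.70 (adjusted p = 0.0954) and -0.65 (adjusted p = 0.0712), and still did not pass. That array had the highest neutrophil marker mean of the 6, and the part of this in the Rgs2 value was not tested.

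Rgs3, the R4 gene with the longest protein forms, had 4 probe sets with levels between 5.15 and 8.86 on the knockout arrays. Its brightest, 1425296_a_at, had 8.67, 8.82 and 8.86 in the knockout and 8.87, 8.80 and 8.85 in wild type, which overlapped. The 4 differences lay between -0.12 and 0.017, 3 of them negative, and none passed (0 of 4, lowest limma adjusted p = 0.716). The 95% interval on the brightest was -0.25 to 0.14, which bounds a shift in either direction but does not show that the groups were alike.

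Rgs18, expressed mainly in platelets, their precursors and other blood cells, was the only member with positive differences on all its probe sets, a pair. Both lay below the median level of the array. On 1449856_at the levels were 3.88, 5.58 and 4.48 in the knockout and 4.05, 4.03 and 3.60 in wild type, and on 1420398_at they were 3.43, 5.28 and 3.74 in the knockout and 3.50, 3.71 and 3.15 in wild type. Knockout replicate 2 stood above all others, and knockout replicate 1 lay within the wild type range on both.

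The Rgs18 differences were 0.75 (SE 0.38, limma adjusted p = 0.376) and 0.70 (SE 0.44, adjusted p = 0.474), and did not pass. Without knockout replicate 2 they were 0.28 (adjusted p = 0.583) and 0.13 (adjusted p = 0.781). The order of the knockout arrays for Rgs18, replicate 2 above 3 above 1, was that of the neutrophil marker mean. Of 19 measured monocyte and macrophage markers 2 passed as higher, with list means of 5.86, 5.99 and 5.80 on the knockout arrays and 5.13, 5.26 and 4.86 on the wild type arrays. Of the 19, 18 had a positive difference and 1 a negative one, with a median of 0.80. At an unadjusted p under 0.05, 12 were higher and 0 lower, beside 1049 and 1139 of all 12393 genes. In 8 of the 19 the level lay below the array medians on all 6 arrays. Of 8 measured platelet and megakaryocyte markers 0 passed (1 higher at an unadjusted p under 0.05), with list means of 4.59, 4.56 and 4.67 in the knockout and 4.49, 4.42 and 4.54 in wild type, and 7 of the 8 lay below the array medians on all 6 arrays. The part of these cells in the Rgs18 value was not tested.

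Rgs10, a small protein of the R12 group that consists mostly of the RGS domain, had levels of 10.79, 10.16 and 9.998 in the knockout and 10.66, 10.56 and 10.70 in wild type. Knockout replicates 2 and 3 were below and replicate 1 was above all wild type arrays. The difference of -0.32 (SE 0.19) did not pass (limma adjusted p = 0.447). Without knockout replicate 1 it was -0.56 and passed (adjusted p = 0.0356), so that 1 array decided this call. The same order of the knockout arrays, replicate 1 above 2 above 3, was seen in Rgs14 and in Foxp3. Foxp3 had 9.28, 8.82 and 8.43 in the knockout and 9.47, 9.51 and 9.51 in wild type. Unlike Rgs10, it had replicate 1 below all wild type arrays too. A link between these genes was not tested.

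Rgs14, an R12 scaffold that also binds Ras-family proteins and inactive G alpha subunits, had levels of 10.09, 9.89 and 9.70 in the knockout and 9.94, 9.92 and 9.94 in wild type. The wild type arrays had an SD of 0.012 and the knockout arrays lay on both sides of them. The difference was -0.037 (SE 0.11, 95% interval -0.28 to 0.21, limma adjusted p = 0.895). Rgs19, the RZ member, also known as GAIP, had 9.42, 9.50 and 9.30 in the knockout and 9.56, 9.33 and 9.48 in wild type on its brighter probe set, with a difference of -0.051 (SE 0.095, 95% interval -0.27 to 0.17, adjusted p = 0.832). Its other probe set, whose suffix _x_at marks probes that may match other transcripts, had a difference of -0.14 (adjusted p = 0.512). For both genes the groups overlapped.

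The knockout arrays differed more among themselves than the wild type arrays did. The SD was larger in the knockout than in wild type for 13 of the 16 RGS probe sets, with medians of 0.24 and 0.093. Over all probe sets it was larger for 60.7%, with medians of 0.12 in the knockout and 0.099 in wild type. Knockout replicate 2 had the highest value of the 3 knockout arrays on 13 of the 16 probe sets and the lowest on 0. Replicates 1 and 3 each had the lowest on 8. Probe sets of a gene share their source, and by brightest probe set knockout replicate 2 was the highest for 5 of the 8 genes.

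**Figure D3:**
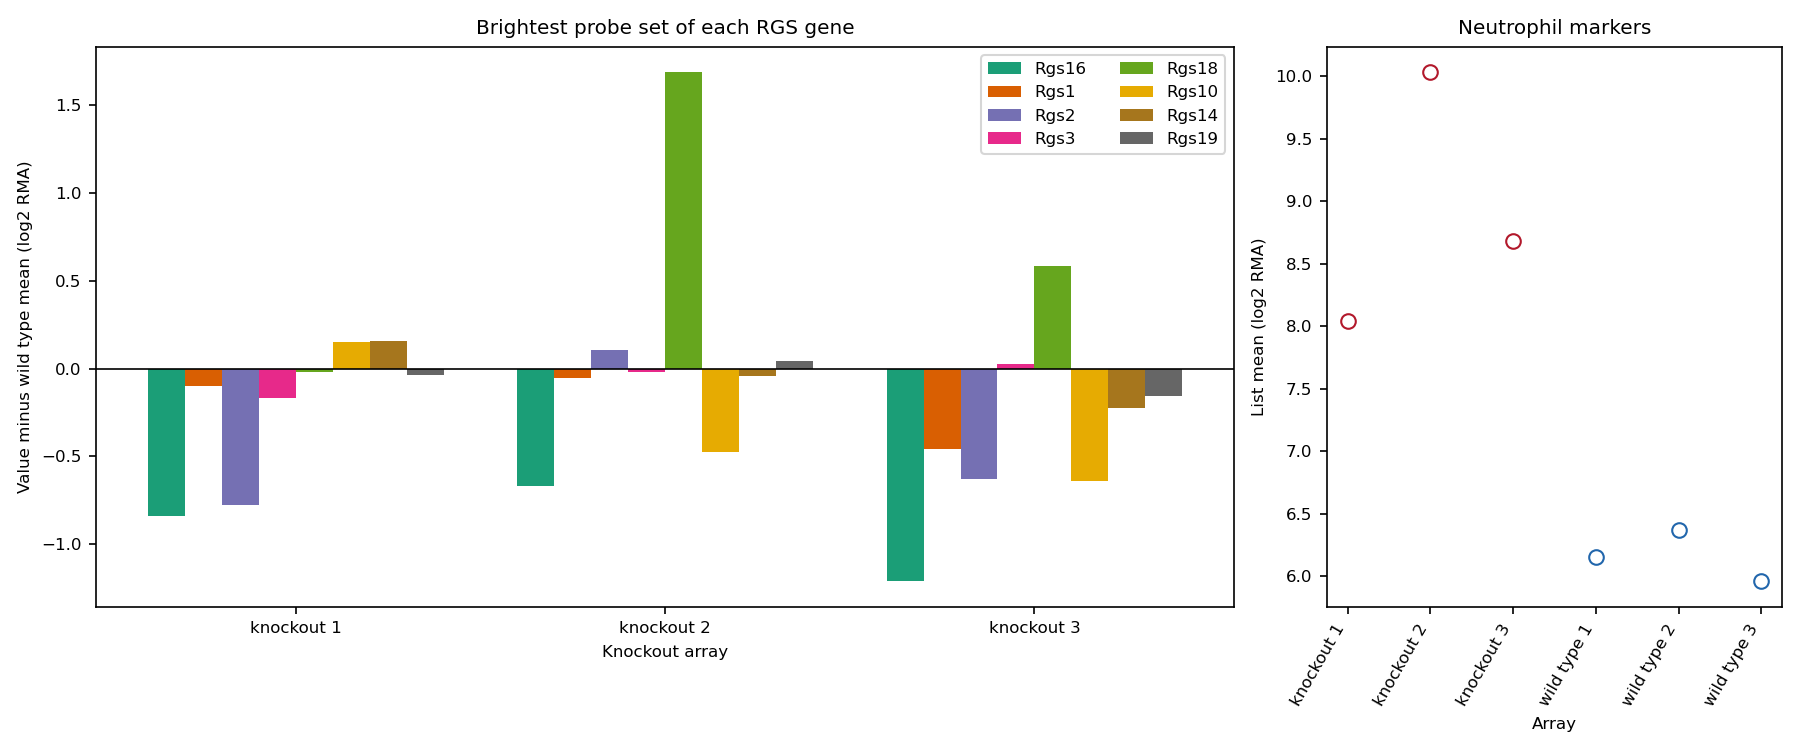
Left, value of each RGS gene's brightest probe set on each knockout array minus the wild type mean (vertical axis, log2 RMA; bars start at 0); right, mean level of 13 neutrophil markers on each array (log2 RMA), knockout in red and wild type in blue. Rgs16 lies below 0 on all 3 knockout arrays, while Rgs18 is highest on knockout replicate 2, the array with the highest neutrophil mean.

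The genes whose pattern over the 6 arrays was most like that of Rgs16 were Spry1, Clk1 and Nr4a1. Likeness was the root mean square difference of log2 values after subtracting each gene's wild type mean, over 12161 named genes, and was 0.10 for Spry1 and for Clk1 and 0.11 for Nr4a1. A fall of similar size is thus built into the choice, and the differences of these genes are not independent evidence. Spry1, a feedback inhibitor of receptor tyrosine kinase signalling, had 7.50, 7.35 and 6.99 in the knockout and 8.22, 8.18 and 8.25 in wild type (difference -0.94, limma adjusted p = 0.0206). Clk1, a kinase of splicing factors, had a difference of -0.77 (adjusted p = 0.0522). Nr4a1, a nuclear receptor induced by antigen receptor signals, had 9.51, 9.97 and 9.15 in the knockout and 10.40, 10.37 and 10.34 in wild type (difference -0.83, adjusted p = 0.0781). As with Rgs16, knockout replicate 2 was the highest and replicate 3 the lowest knockout array for Nr4a1 and for Clk1, while for Spry1 replicate 1 was the highest.

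Of 17 measured genes of the antigen response 4 fell (Cd83, Spry1, Nab2 and Egr2) and 0 rose, by each gene's brightest probe set. Over all 12393 genes 0.516% were called lower and 1.32% higher by this rule. The list's median difference was -0.34, beside -0.014 over all genes. Egr2, a transcription factor induced by the antigen receptor, had levels of 7.28, 6.83 and 6.51 in the knockout and 7.90, 7.89 and 7.73 in wild type (limma adjusted p = 0.0494), and its co-repressor Nab2 had 8.53, 8.05 and 8.05 in the knockout and 9.06, 8.995 and 9.05 in wild type (adjusted p = 0.0328). The Egr2 call was lost with quantile normalisation (adjusted p = 0.0536), with cyclic loess (0.0571), with the mean over its probe sets (0.0561), without each wild type array (0.163 to 0.189) and without knockout replicates 2 (0.113) and 3 (0.0829). The list was chosen with earlier results of these data known and is not independent evidence of its direction.

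Next to Rgs16 in the order of protein-coding genes on the reference assembly lies Rgs8, another R4 gene, near the floor with 3.33 ± 0.16 in the knockout and 3.37 ± 0.04 in wild type (difference -0.046, limma adjusted p = 0.856). Beyond it lie Npl (difference 0.11, adjusted p = 0.641) and the helicase gene Dhx9, with 9.50 ± 0.15 in the knockout and 9.71 ± 0.03 in wild type (difference -0.21, adjusted p = 0.315). None of these 3 measured neighbours passed (0 of 3), and they were looked up after the Rgs16 values were seen. Rgs1, Rgs2 and Rgs18 lie in another row of R4 genes on the same chromosome, with Rgs13 between Rgs2 and Rgs1 and Rgs21 between Rgs1 and Rgs18.

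Of the other RGS-domain genes, 11 were measured, 0 passed the limma test and 0 had an unadjusted p under 0.05. Their differences had a median of 0.016, and 7 of the 11 lay below the array medians on all 6 arrays. The lowest p was that of Rgs11, with 6.02, 6.24 and 5.65 in the knockout and 5.67, 5.51 and 5.80 in wild type (difference 0.32, adjusted p = 0.359).

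Among the G proteins that RGS proteins act on, Gna15 passed by its brightest probe set and Gnb1 by a dimmer one. Of 14 alpha subunit genes Gna15, a Gq-family subunit of blood cells, rose to 6.89, 7.22 and 6.87 in the knockout, against 6.22, 5.98 and 6.28 in wild type (1.79-fold, limma adjusted p = 0.0247). It was the only one of the 14 to pass by brightest probe set, where 1.32% of all genes were called higher. The Gna15 knockout arrays lay above all wild type arrays. Without knockout replicate 3 its adjusted p was 0.0507, and without wild type replicates 1, 2 and 3 it was 0.0973, 0.101 and 0.0913. Gnai2, the main Gi subunit of lymphocytes, had 11.19, 11.28 and 11.13 in the knockout and 11.28, 11.30 and 11.27 in wild type (adjusted p = 0.623). By brightest probe set, 0 of 13 beta and gamma subunit genes passed, and 12 had a positive difference, beside 5743 of all 12393 genes. At an unadjusted p under 0.05, 5 of the 13 were higher, beside 1049 of all 12393 genes. In 6 of these 13 the knockout arrays lay above all wild type arrays, against 11.0% of all genes. The lowest p among these was that of Gng3 (4.33 ± 0.16 in the knockout and 3.71 ± 0.18 in wild type, adjusted p = 0.0557).

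The probe sets of Gnb1, a beta subunit gene, disagreed. Its dimmest, 1425908_at, had levels of 5.22, 5.43 and 5.09 in the knockout and 3.33, 3.38 and 3.11 in wild type, without overlap. The difference of 1.97 (SE 0.12, 3.93-fold higher, limma adjusted p = 0.000492) also passed without any 1 array (adjusted p up to 0.00661). Its brightest, 1417432_a_at, had 9.93, 10.04 and 10.08 in the knockout and 9.92, 9.81 and 9.85 in wild type (difference 0.16, adjusted p = 0.380), and 1454696_at had a difference of 0.049 (adjusted p = 0.780). Which Gnb1 transcripts each of these recognises was not analysed here.

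Among the receptors upstream, 2 of 17 Gi-coupled homing receptor genes rose and 0 fell by brightest probe set, against 1.32% and 0.516% of all genes. Cxcr6, a chemokine receptor of effector and tissue T cells, had levels of 10.55, 10.91 and 10.99 in the knockout and 9.93, 9.38 and 9.61 in wild type (2.26-fold, limma adjusted p = 0.0220). Ltb4r1, the leukotriene B4 receptor of neutrophils and effector T cells, had 7.34, 8.42 and 8.04 in the knockout and 6.42, 5.96 and 6.29 in wild type (3.26-fold, adjusted p = 0.0252). The other Cxcr6 probe set, 1425832_a_at, rose too (2.57-fold, adjusted p = 0.0177). Both genes were without overlap, and the Ltb4r1 knockout arrays were ordered as the neutrophil marker mean, whose part was not tested. The monocyte and effector cell chemokine receptor gene Ccr2 had 1 uncalled and 2 called probe sets. Its brightest had 8.29, 9.31 and 9.29 in the knockout and 8.68, 7.93 and 7.998 in wild type (adjusted p = 0.275), while 1421187_at (2.01-fold higher, adjusted p = 0.0300) and 1421188_at (2.13-fold higher, adjusted p = 0.0255) passed. Both Ccr2 calls were lost without each wild type array (adjusted p 0.0596 to 0.141) and without knockout replicate 3 (0.0853 and 0.0560), and that of 1421187_at also without knockout replicate 2 (0.0731).

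Of 12 other lymphocyte receptor genes 1 fell and 0 rose by brightest probe set, against 0.516% and 1.32% of all genes. It was Ptger2, a Gs-coupled prostaglandin E receptor, with 6.59, 6.21 and 6.36 in the knockout and 7.81, 7.62 and 7.38 in wild type (difference -1.22, limma adjusted p = 0.0118). The leukotriene receptor gene Cysltr1 passed on its dimmer probe set, 1418944_at (2.22-fold higher, adjusted p = 0.0431), and not on its brighter one (difference 0.56, adjusted p = 0.154). That call was lost without each wild type array and without knockout replicates 2 and 3 (adjusted p at least 0.0597). The chemokine receptor Ccr7 had 10.96, 10.14 and 10.35 in the knockout and 10.40, 10.38 and 10.67 in wild type, and was named after its values were seen.

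Downstream, 0 of 15 measured effector genes passed (1 higher and 1 lower at an unadjusted p under 0.05) in the limma fit. Of 11 measured genes of receptor desensitisation and G protein regulation 0 passed (1 higher and 2 lower at an unadjusted p under 0.05), the lowest p being that of Grk5, a receptor kinase, with 6.25 ± 0.34 in the knockout and 5.60 ± 0.31 in wild type (adjusted p = 0.174). The medians of both lists were within 0.021 of 0.

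**Figure D4:**
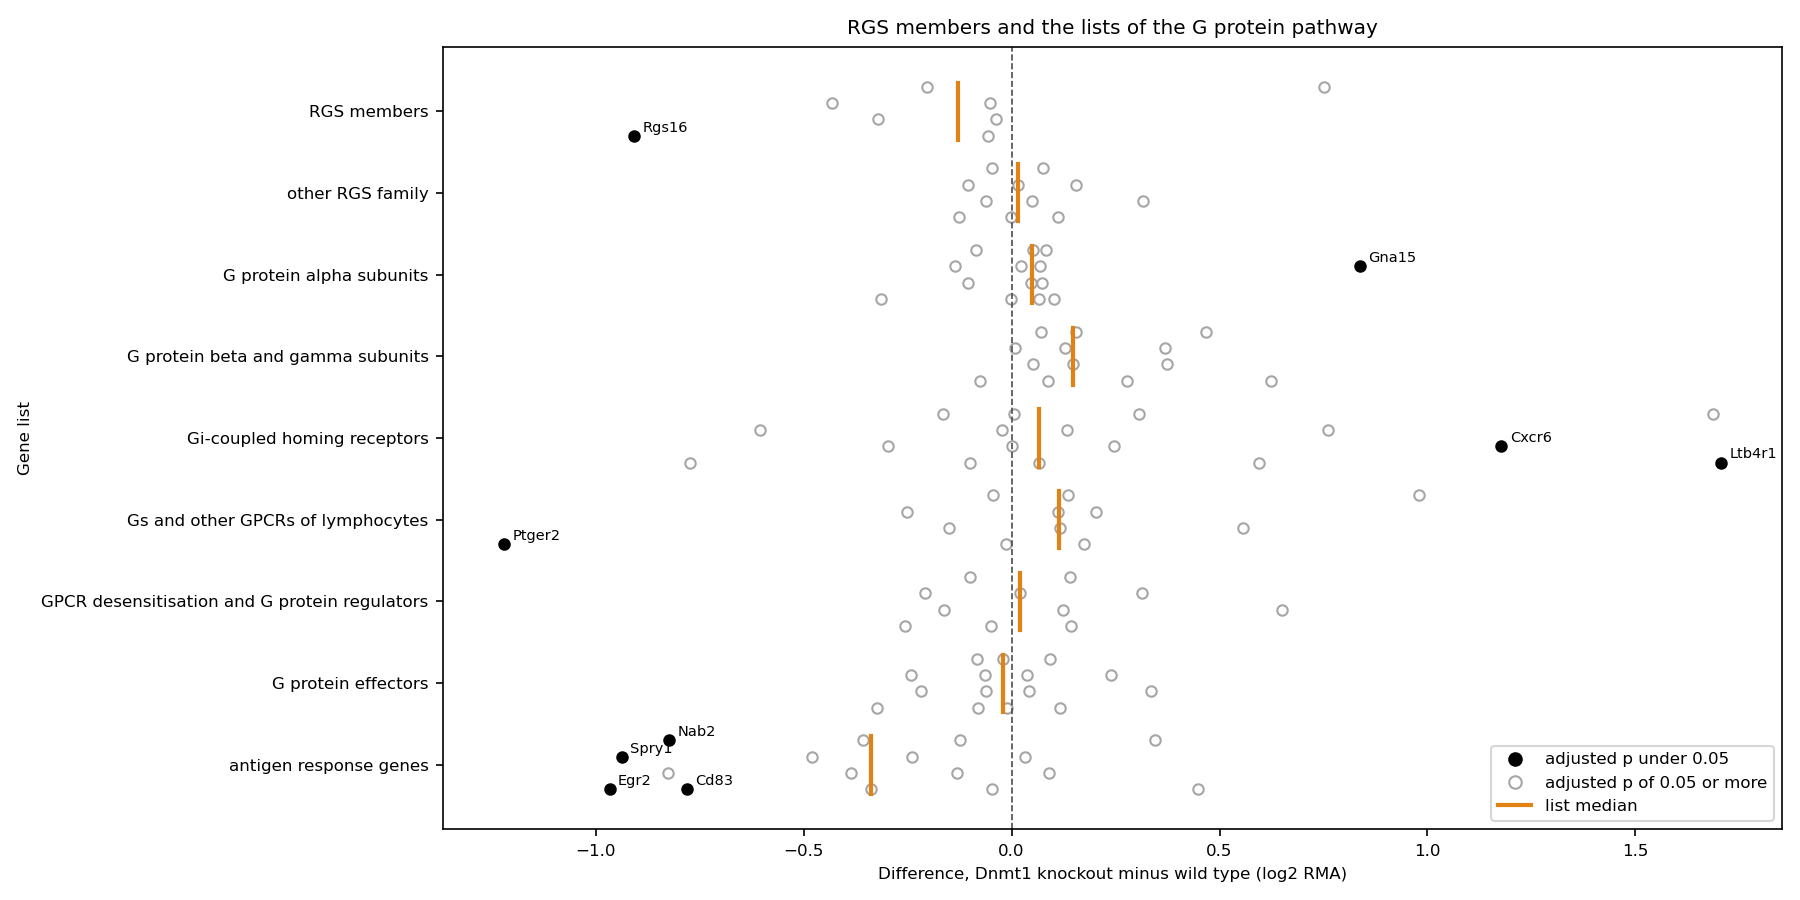
Difference between Dnmt1 knockout and wild type (horizontal axis, log2 RMA) for the brightest probe set of each gene in the RGS set and in 8 other lists (vertical axis), black for an adjusted p under 0.05, with the list median as an orange line. The 8 are the lists of the G protein pathway and that of the antigen response. Rgs16 is the called RGS gene, and Gna15, Cxcr6, Ltb4r1, Ptger2 and 4 antigen response genes are the called genes of the other lists.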

How the data were processed

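The authors deposited log2 expression values, 1 per probe set and array, computed by RMA according to the submitters' processing notes, and no source used here gives its version or settings. Probe sets took their names from the platform annotation, some of whose symbols may be out of date. The RefSeq gene table of GRCm38.p6 was used for names and neighbours, and a separate set of RefSeq promoter sequences for the windows. Of 22690 probe sets 64 controls were left out. A linear model was fitted with limma 3.58.1 (lmFit, eBayes, two-sided tests) in R 4.3.3 over the other 22626, with Benjamini-Hochberg adjustment over all of them, a threshold of 0.05 and no filter. Differences are knockout minus wild type, and errors of means are SD. For gene lists, the probe set with the highest mean over the 6 arrays stood for each gene. The fit was tested on simulated data.

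The members, lists and tests were chosen with earlier results of these data known. The genes named are every member, Dnmt1, Foxp3, the called genes of each list (at most 4, or the gene with the lowest p, which for the effector list is not reported here), the 3 genes most like Rgs16 and, for marker lists, counts and means. Cd3d is 1 of the brightest T cell markers. Gnai2, Ccr7, Igha, the neighbours of Rgs16, and the called markers of Treg and of CD8 and NK cells were named after their values were seen. So were the genes called only on a dimmer probe set (Gnb1, Ccr2 and Cysltr1). Alternatives were other rows tested, filters, normalisations, variance models, array weights, a replicate block and leaving out each array. Plots used matplotlib 3.10.9 (Python 3.11.15).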

Additional observations from a re-analysis of the deposited data

How the results depend on the processing

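Of 222 values of the member differences under 15 alternatives, 198 kept their sign and their side of the threshold, 10 lost a call (all of them Rgs16), 2 gained one and 12 changed sign. Those that changed sign were of uncalled members near 0, and the cause was not tested. With 1 array left out, the difference ran from -0.081 to 0.15 for Rgs3 probe set 1449516_a_at, from -0.071 to 0.023 for Rgs3 probe set 1425701_a_at and from -0.096 to 0.00071 for Rgs3 probe set 1425296_a_at. It ran from -0.14 to 0.058 for Rgs14 and from -0.11 to 0.0032 for Rgs19 probe set 1417786_a_at. Rgs3 probe set 1449516_a_at was at -0.012 with median centring, and with cyclic loess Rgs3 probe set 1425701_a_at was at 0.025 and Rgs14 at 0.014. The number of member probe sets called lower, 2, was 1 with cyclic loess and with the replicate block, where 1455265_a_at missed the threshold (adjusted p = 0.0551 and 0.0751). It was 1 with the brightest probe set per gene and 1 with the mean over the probe sets of a gene, where Rgs16 has a single row. It ran from 0 to 3 with 1 array left out, and the number called higher was 0 throughout.

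The replicate numbers come from the sample titles, and the main fit assumed no pairing by them. Deviations of arrays 1, 2 and 3 from their group means had correlations of -0.076, 0.11 and -0.010 with the same number across groups. Knockout replicate 2 correlated best with its own number, and knockout replicates 1 and 3 with another. Within a group such deviations cancel, so these correlations depend on one another, and a pairing was not tested with them. Over all probe sets 380 were called, 270 higher and 110 lower. With the brightest probe set per gene, which tests fewer rows, these were 236, 165 and 71, and with the replicate block 218, 166 and 52. Lower calls were 169 with array weights and 182 with trend and robust variance. With 1 array left out, calls ran from 29 to 756, higher calls from 24 to 493 and lower calls from 5 to 263. Alternatives for the lists of the G protein pathway, counted together with the antigen response list, were chosen after seeing the data. Their 3 higher calls were 5 with the mean over probe sets, 5 with array weights and 1 with the replicate block, and ran from 0 to 5 with 1 array left out. The 1 under the replicate block was none of Gna15, Cxcr6 and Ltb4r1, the 3 genes called higher in the main fit. Their 5 lower calls, Ptger2 and 4 antigen response genes, were 7 with array weights and ran from 0 to 6 with 1 array left out, by brightest probe set. By that measure 0 of these genes passed in either direction without wild type replicate 1 or without wild type replicate 2, and Ptger2 alone passed without wild type replicate 3. Under quantile normalisation, cyclic loess and the mean over probe sets Egr2 missed the threshold (adjusted p 0.0536, 0.0571 and 0.0561). Under the replicate block Gna15 (adjusted p = 0.0744), the brighter Cxcr6 probe set (0.0619), Ltb4r1 (0.0629), the called probe sets of Ccr2 (0.0810 and 0.0679) and of Cysltr1 (0.0936), and Nab2 (0.0514) missed the threshold.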
